A study of Rattus norvegicus with 6 samples.

Results

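Immediate-early genes outside the AP-1 family were followed in the rat L5 (lumbar) dorsal root ganglion after transection of its spinal nerve. The group was chosen by gene name, with no measured value in the rule but with earlier results of these data known: Egr1, Egr3, Egr4, Nr4a1, Nr4a2, Nr4a3, Arc, Ier2, Ier3 and Btg2. A member was taken where a transcript cluster, the array's unit for 1 gene, carried that single symbol, which gave 9 of the 10 genes among 19418 transcript clusters, 13327 of which carried 1 symbol. No cluster carried Btg2 alone, and it was not analysed here. Of the 9, 6 had a mean of at least 6 on the log2 scale over the arrays, and Nr4a3, Arc and Ier2 lay below that.

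The study compared L5 ganglia of male Wistar rats, taken 7 days after L5 spinal nerve transection (SNT), with ganglia of naive male Wistar rats that had no operation. Each group held 3 samples, each a pool of ganglia from 4 animals, and each was hybridised to 1 Affymetrix rat exon array after poly(A) enrichment. Transection cuts the axons of the L5 sensory neurones between ganglion and limb and is a model of neuropathic pain. Because the controls were naive and not sham-operated, the cut nerve and the surgery around it cannot be told apart. Whole ganglia were used, so a value is the sum over neurones, satellite glia, Schwann cells, immune cells and vessels.

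Immediate-early genes are transcribed from factors already present in the cell, without new protein synthesis, within minutes of depolarisation, growth factor or injury signals. Calcium and ERK signalling act on them through CREB, which binds cyclic AMP response elements, and through serum response factor with its ternary complex partners, which bind CArG boxes. The EGR and NR4A products are themselves transcription factors, and Arc acts at synapses. In sensory neurones this class is best known for its short-lived response to activity, and its AP-1 and ATF members are known for a long-lasting response to axotomy.

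Promoters were searched for the elements through which this class is known to respond. RefSeq promoter sequence on GRCr8, from 250 bases before to 50 bases after the start of the gene, was matched for 5 members: Egr1, Egr4, Nr4a1, Nr4a2 and Ier2. Those of the called members are printed 5′ to 3′ on the strand of the gene, with CArG boxes, TGACGTCA (the full cyclic AMP response element) and TGACG (its core) in capitals, a match on the other strand reading CGTCA. The Egr1 window lies at chr18:26736828-26737127 on the plus strand, the Nr4a1 window at chr7:134259888-134260187 on the plus strand, the Nr4a2 window at chr3:62104838-62105137 on the minus strand and the Ier2 window at chr19:40399123-40399422 on the plus strand.
Egr1: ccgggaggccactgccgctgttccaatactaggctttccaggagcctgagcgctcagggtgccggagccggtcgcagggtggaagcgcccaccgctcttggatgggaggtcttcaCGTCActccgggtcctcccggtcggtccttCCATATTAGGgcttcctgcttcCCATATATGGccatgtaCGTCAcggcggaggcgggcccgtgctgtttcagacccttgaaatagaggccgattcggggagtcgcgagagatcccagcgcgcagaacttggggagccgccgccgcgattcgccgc
Nr4a1: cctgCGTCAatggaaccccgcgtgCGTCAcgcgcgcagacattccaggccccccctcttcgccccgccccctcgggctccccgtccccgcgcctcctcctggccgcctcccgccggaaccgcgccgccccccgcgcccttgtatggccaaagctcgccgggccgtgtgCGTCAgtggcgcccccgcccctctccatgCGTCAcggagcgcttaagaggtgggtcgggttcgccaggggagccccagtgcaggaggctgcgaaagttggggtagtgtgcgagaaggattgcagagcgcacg
Nr4a2: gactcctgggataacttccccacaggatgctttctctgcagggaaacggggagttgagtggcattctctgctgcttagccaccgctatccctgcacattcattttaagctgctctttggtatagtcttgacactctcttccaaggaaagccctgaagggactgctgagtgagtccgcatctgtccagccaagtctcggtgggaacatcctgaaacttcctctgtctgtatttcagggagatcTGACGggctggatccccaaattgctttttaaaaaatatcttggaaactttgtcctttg
Ier2: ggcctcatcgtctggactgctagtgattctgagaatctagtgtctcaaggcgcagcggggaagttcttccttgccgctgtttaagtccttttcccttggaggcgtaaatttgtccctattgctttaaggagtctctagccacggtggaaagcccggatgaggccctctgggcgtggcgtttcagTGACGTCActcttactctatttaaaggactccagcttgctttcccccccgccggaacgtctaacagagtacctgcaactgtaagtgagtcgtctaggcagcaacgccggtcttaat
A CArG box was counted only as an exact match to CCWWWWWWGG, W being A or T, so stretches 1 letter off that pattern were not counted. Egr1 was the only 1 of the 5 with such exact CArG boxes, at -105 to -96 and at -83 to -74 bases from its start, whereas 1.64% of all 27457 promoters in the table held one. Ier2 alone held TGACGTCA, at -66 to -59 bases from its start, against 1.91% of all promoters. The core TGACG, searched on both strands, was found in all 5 windows and in 22.0% of all promoters. Nr4a1 held 4 copies, Egr1 and Egr4 held 2 each and Nr4a2 held 1, and the 2 copies of Ier2 lie within its TGACGTCA. The EGR element GCGTGGGCG (0.59% of all promoters), the NR4A element AAAGGTCA (1.29%), the AP-1 element TGANTCA (7.33%) and TATAAA (14.3%) had no match in these 5 windows. A match describes the letters only and was not tested as a bound site.

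At 7 days 6 of the 9 measured members were higher after SNT and none was lower at an FDR of 0.1: Nr4a2, Egr1, Ier2, Ier3, Nr4a1 and Nr4a3. Across the array 17.3% of clusters rose by the same test and 14.8% fell, 32.1% being called in either direction. All 9 members had a log2 fold change above 0, as did 63.8% of all clusters. The median log2 fold change of the members was 0.64, against 0.09 over all clusters and 0.45 over the clusters called as risen. None of the members reached a 2-fold change, a size at which 1.85% of all clusters rose. In 5 members every SNT array lay above every naive array, an arrangement that 26% of all clusters had (44.5% were separated in either direction). In these bulk samples, a change in the number of cells of a type and a change in RNA per cell cannot be told apart. Leaving out naive 1, naive 2 or SNT 2 left 3 members called, and centring every array on its median also left 3. Calls over all clusters dropped as well. They went from 6232 to 3499 without naive 1, 3745 without naive 2, 5257 without SNT 2 and 5272 on centring.

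**Figure D1:**
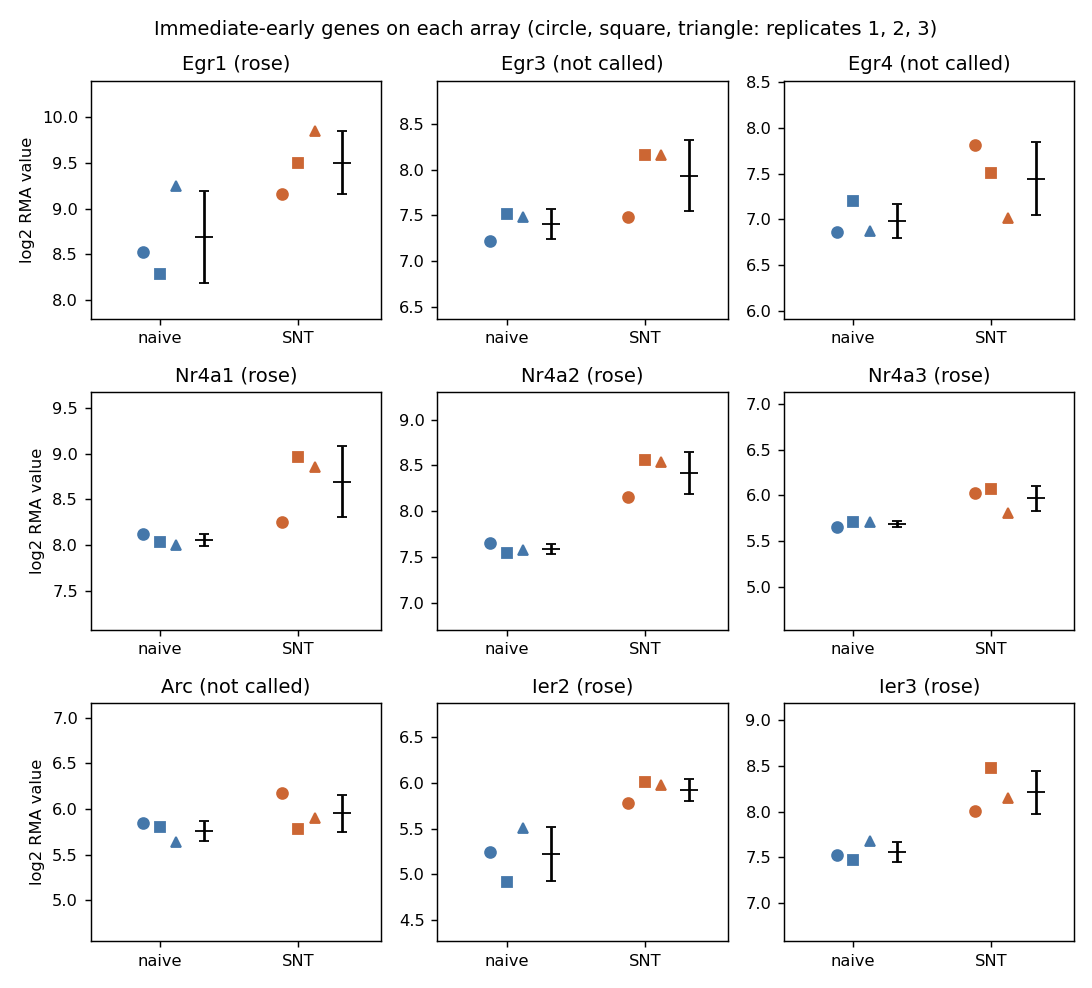
Log2 value of each measured immediate-early gene (vertical axes, all of equal span) on the 3 naive and the 3 SNT arrays, circles, squares and triangles being replicates 1, 2 and 3, with the mean and 1 SD beside each group. The 3 SNT arrays lie above the 3 naive arrays for Nr4a1, Nr4a2, Nr4a3, Ier2 and Ier3, whereas for Egr1 the highest naive array, at 9.25, lies above the lowest SNT array, at 9.16.

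**Figure D2:**
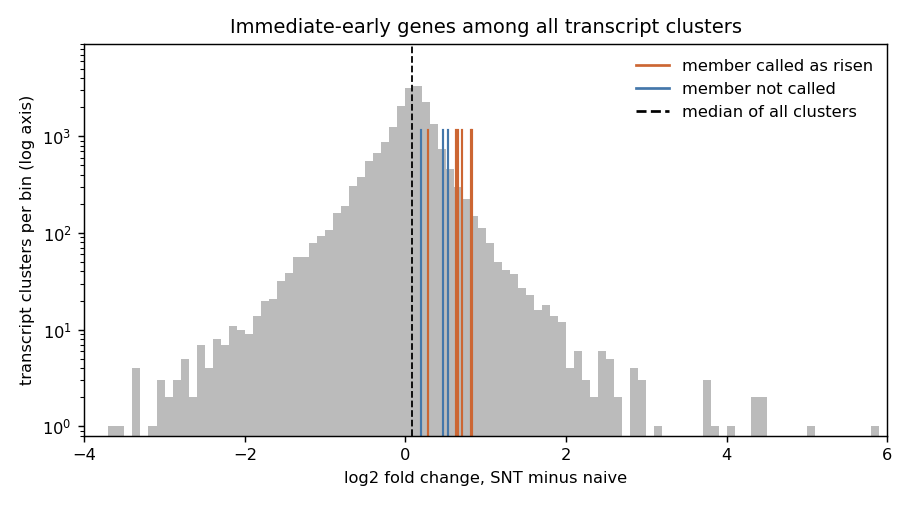
Histogram of the log2 fold change, SNT minus naive, of all 19418 transcript clusters (vertical axis, clusters per bin on a log scale), with 1 line for each measured immediate-early gene and a dashed line at the median of all clusters, 0.09. All 9 lines lie to the right of that median, between 0.19 for Arc and 0.83 for Nr4a2, which lies above 97.1% of all clusters.

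The NR4A orphan nuclear receptors were all 3 called. They are transcription factors without a known physiological ligand that bind DNA as monomers or as partners of retinoid X receptors. Nr4a2, known in mice for its need in midbrain dopamine neurones, read 7.65, 7.54 and 7.57 on the naive arrays and 8.15, 8.56 and 8.54 on the SNT arrays. The groups did not overlap, and the naive arrays lay close together, SNT 1 being the lowest of the SNT arrays. Nr4a2 rose by 0.83 ± 0.12 (SE, n = 3 and 3) on the log2 scale, 1.78-fold, with a limma adjusted p of 0.00751 and a 95% interval of 0.54 to 1.13. With the values as deposited this was the largest change among the members, and lay above that of 97.1% of all clusters. Egr1 was next at 0.82, and larger than Nr4a2 with quantile normalisation, cyclic loess or array weights and without SNT 1, SNT 2 or naive 3. Nr4a2 kept its call under all 14 alternative settings, at adjusted p of at most 0.0407.

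Nr4a1, whose product is also called Nur77, read 8.121, 8.037 and 8.004 in naive ganglia and 8.245, 8.965 and 8.856 after SNT. SNT 2 and SNT 3 stood well above the naive arrays, while SNT 1 exceeded the highest of them by little. The gene rose by 0.64 ± 0.19 (SE), 1.55-fold, at a limma adjusted p of 0.0508. Without SNT 1 the change was 0.86 at an adjusted p of 0.00125, and without any other single array it lost its call, at adjusted p of 0.122 to 0.137. It was also lost on median centring, at 0.55 and an adjusted p of 0.124.

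Nr4a3 was among the dimmer members, at 5.65, 5.71 and 5.70 on the naive arrays and 6.03, 6.07 and 5.81 on the SNT arrays. The groups were separate, with SNT 3 only slightly above the highest naive array. Nr4a3 rose by 0.28 ± 0.09 (SE), 1.21-fold, with a limma adjusted p of 0.0720. Its call was lost in 9 of 13 alternatives, among them quantile normalisation (adjusted p = 0.220), cyclic loess (0.231) and leaving out any single array other than SNT 3.

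Of Egr1, Egr3 and Egr4 only Egr1 was called. They belong to the EGR family of zinc finger factors, which bind GC-rich elements. Some members of the family, not all, are held in check by the NAB corepressors. Egr1 itself is a classical reporter of neuronal activity and of growth factor signalling. It read 8.52, 8.29 and 9.25 in naive ganglia and 9.16, 9.51 and 9.85 after SNT. The groups overlapped, because naive 3 lay above SNT 1, and the naive SD of 0.50 was the widest among the members. The log2 fold change was 0.82 ± 0.28 (SE), 1.76-fold, with a 95% interval of 0.15 to 1.48 and a limma adjusted p of 0.0797. Its call was lost on median centring (adjusted p = 0.131) and without SNT 2 (0.155), SNT 3 (0.179), naive 1 (0.217) or naive 2 (0.216), the change lying between 0.62 and 1.10 over all alternatives.

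Egr3 and Egr4 did not pass the test. Egr3, known in mice for its need in muscle spindle development, read 7.22, 7.52 and 7.48 on the naive arrays and 7.48, 8.16 and 8.16 on the SNT arrays. SNT 2 and SNT 3 lay above every naive array and SNT 1 lay among them. The log2 fold change was 0.53 ± 0.20 (SE) at a limma adjusted p of 0.103, just outside the threshold. It was called in 5 of 14 alternatives, at 0.75 and an adjusted p of 0.00511 without SNT 1.

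Egr4 showed the opposite order of SNT arrays, with 6.87, 7.20 and 6.88 in naive ganglia and 7.81, 7.51 and 7.02 after SNT. Here SNT 1 was the highest and SNT 3 lay below naive 2, so that the groups overlapped. The log2 fold change was 0.46 ± 0.21 (SE), with an interval of -0.03 to 0.96 and a limma adjusted p of 0.157. Without SNT 1 it was 0.28 (adjusted p = 0.303) and without SNT 3 it was 0.68 (0.0373), the only 1 of 14 alternatives that called it.

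Ier2 and Ier3, 2 of the 3 measured members that encode no DNA-binding factor of these families, both rose. Ier2, a small nuclear protein induced by growth factors, read 5.25, 4.91 and 5.50 on the naive arrays and 5.78, 6.01 and 5.97 on the SNT arrays. The groups did not overlap, although naive 2 and naive 3 lay further apart than any pair of SNT arrays. Ier2 rose by 0.70 ± 0.16 (SE), 1.62-fold, with a limma adjusted p of 0.0222, and kept its call in all 13 alternatives in which it was tested.

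Ier3, a stress-induced protein linked to cell survival and ERK signalling, read 7.53, 7.47 and 7.68 in naive ganglia and 8.01, 8.48 and 8.15 after SNT. Every SNT array lay above every naive array, SNT 2 being the highest. The rise was 0.65 ± 0.13 (SE) on the log2 scale, 1.57-fold, with a limma adjusted p of 0.0167, and the call was kept in all 14 alternatives at adjusted p of at most 0.0696.

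Arc, the synaptic protein that promotes AMPA receptor endocytosis, was the member with the smallest change. It read 5.84, 5.80 and 5.64 on the naive arrays and 6.17, 5.78 and 5.90 on the SNT arrays. The groups overlapped, SNT 2 lying below naive 1 and naive 2. Its log2 fold change of 0.19 ± 0.12 (SE) had an interval of -0.10 to 0.48 and a limma adjusted p of 0.302, and it was not called in any of the 13 alternatives that tested it. The change was 0.08 without SNT 1 and 0.07 with cyclic loess.

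**Figure D3:**
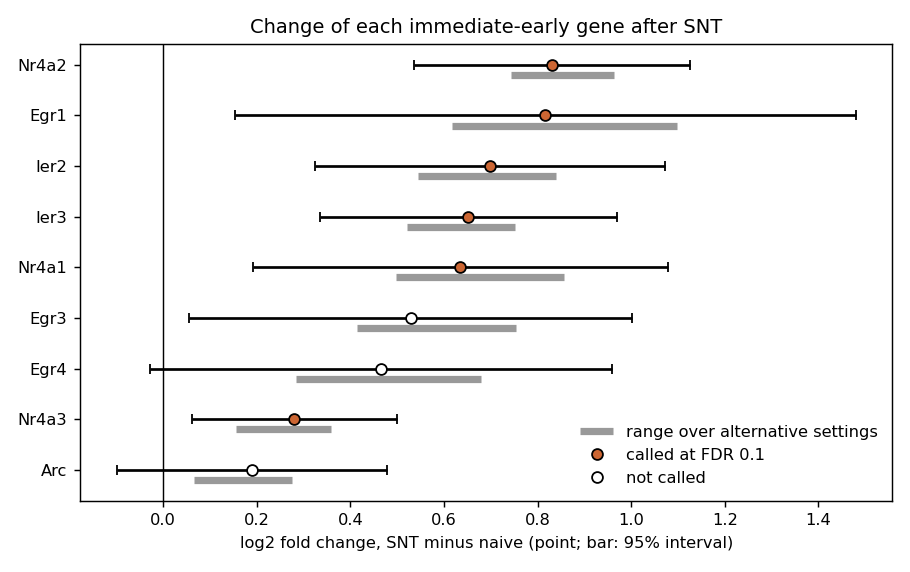
Log2 fold change of each measured member, SNT minus naive (horizontal axis), ordered by size, with its 95% interval as the black bar and its range over the alternative settings as the grey bar. Filled points were called at an FDR of 0.1. The intervals of Egr4 and Arc reach below 0, and the grey bars of all 9 members stay above it.

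EGR members, NR4A members, and Ier2 with Ier3, paired by name only, were also compared with each other, over 7 pairs. The comparison used the exact two-sided permutation test of the within-array difference, whose smallest possible p with 3 arrays against 3 is 0.1. No pair could therefore pass a threshold of 0.05 by this test, whose p-values do not bear on whether the paired genes responded alike. Nr4a2 changed by 0.55 more than Nr4a3 on the log2 scale, 0.23 to 0.83 more on each of the SNT arrays (exact p = 0.1, adjusted over the pairs 0.35). Nr4a1 changed by 0.20 less than Nr4a2 (exact p = 0.1, adjusted 0.35). For the other pairs exact p was 0.4 to 0.9, the differences being 0.29 for Egr1 minus Egr3, 0.35 for Egr1 minus Egr4, 0.06 for Egr3 minus Egr4, 0.36 for Nr4a1 minus Nr4a3 and 0.05 for Ier2 minus Ier3.

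The SNT arrays differed among themselves in these genes. The median difference of the 9 members from their naive means was 0.45 on SNT 1, 0.78 on SNT 2 and 0.75 on SNT 3, against -0.03, -0.02 and 0.02 on the naive arrays. SNT 1 was the lowest SNT array for 6 members, with Egr4 and Arc at their highest there. SDs of the members ran from 0.12 to 0.40 among SNT arrays (median 0.24) and from 0.03 to 0.50 among naive arrays (median 0.11).

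SNT 1 also stood apart over the whole array: it correlated at 0.982 with the other SNT arrays and at 0.978 to 0.981 with the naive arrays, and its median of 6.31 was the highest of the 6 (6.11 to 6.21 on the others). Atf3 and Sprr1a, which are known to rise after axotomy, rose by 3.78 ± 0.09 and 5.86 ± 0.17 (SE) on the log2 scale, with every SNT array above every naive array. The neuronal marker Tubb3, named after its values were seen, read 12.4 to 12.6 on all 6 arrays. Stmn2 was likewise not called, at a log2 fold change of 0.04. Snap25 and Nefl fell, at log2 fold changes of -0.69 and -0.92. Uchl1 and Prph were not called, at -0.27 and -0.23, but every SNT array lay below every naive array for both. All 9 macrophage markers rose, with a median log2 fold change of 1.67, and their summed intensity ran from 1228 to 1663 on naive and from 4166 to 7810 on SNT arrays, lowest on SNT 1 and highest on SNT 2. Of the T and NK cell markers 3 of 5 rose and of the fibroblast markers 2 of 3, while 2 of 6 pan-neuronal markers fell, the median there being -0.25. Satellite glia markers went both ways, 2 of 5 rising and 2 falling, as did Schwann cell markers, 1 of 5 rising and 1 falling. Of the endothelial markers 1 of 4 rose and of the mural cell markers 2 of 4, with none falling. Over all clusters 17.3% rose and 14.8% fell by the same test. Naive 3, the highest naive array for Egr1, Ier2 and Ier3, was also the highest for macrophage markers and for neutrophil markers, whose summed intensity was 332, 482 and 1027 on the naive arrays. The part of these cells in the members' values was not tested.

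The AP-1 genes and the remaining immediate-early genes were measured on the same arrays. All 6 measured AP-1 genes of the 7 listed rose (against 17.3% of all clusters), with a median log2 fold change of 0.96. Jun, the partner of FOS and ATF3 in AP-1 dimers, rose by 1.52 ± 0.14 (SE; adjusted p = 0.00292), Fosl1 by 1.06 ± 0.14 (0.00605) and Fos by 1.42 ± 0.19 (0.00633). Fosb rose by 0.34 ± 0.09 (0.0322) and lost its call without naive 1 or naive 2. Without naive 1 only 3 of the 6 were called.

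Of 29 other measured immediate-early genes among 33 symbols listed, older synonyms included, 20 rose and none fell (against 17.3% and 14.8% of all clusters). Their median was 0.46. By adjusted p Atf3 came first, followed by Nfil3, a basic leucine zipper repressor, at 1.19 ± 0.12 (SE; adjusted p = 0.00366), Zfp36, which promotes decay of cytokine mRNAs, at 0.74 ± 0.10 (0.00599) and Klf10, a zinc finger factor induced by TGF-beta, at 0.69 ± 0.09 (0.00643). The order by size of change was another, with Egr2 among the genes that rose by more than Zfp36. Without naive 1 or naive 2, 11 of the 29 rose. Egr2, the remaining EGR gene and a factor of Schwann cell myelination, read 7.07, 7.36 and 7.89 on naive and 8.06, 8.51 and 8.82 on SNT arrays, and was chosen here after its values were seen. Its groups did not overlap, naive 3 was again the highest naive array, and it rose by 1.02 ± 0.26 (SE; adjusted p = 0.0318), losing the call without naive 1 or naive 2 (0.105 and 0.104). Npas4, a factor induced in neurones by calcium entry and also chosen after its values were seen, had a log2 fold change of -0.08 ± 0.15 (SE; adjusted p = 0.743). It was dim, at 4.99, 5.19 and 4.96 on naive and 5.26, 4.96 and 4.70 on SNT arrays, below the filter level of 6.

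The regulators that act on such promoters were taken next. Of 8 measured SRF, ternary complex, CREB and MEF2 regulators among 19 listed, 3 rose and none fell. By the same test 17.3% of all clusters rose and 14.8% fell. The median log2 fold change of the 8 was 0.23. Elk4, a ternary complex factor, rose by 0.45 ± 0.13 (SE; adjusted p = 0.0449), Crem by 0.30 ± 0.09 (0.0548) and Crebbp, the coactivator of CREB, by 0.34 ± 0.11 (0.0631). Leaving out single arrays changed their number to between 0 and 5, with none called without naive 1, naive 2 or SNT 2, and none was called on median centring. Crem lost its call in 8 of 14 alternatives, Crebbp in 7 and Elk4 in 5. Srf itself was not called, with a log2 fold change of 0.20 ± 0.09 (SE; adjusted p = 0.136), nor was Creb1, at 0.07 ± 0.17 (0.787), both chosen after their values were seen.

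The kinases upstream of them went both ways. Of 13 measured ERK and CREB kinase genes of 20 listed, 3 rose and 5 fell, with a median of -0.03. Over all clusters 17.3% rose and 14.8% fell. Camk2d, a calcium/calmodulin kinase subunit, rose by 0.69 ± 0.11 (SE; adjusted p = 0.00839) and Prkaca, the catalytic subunit of protein kinase A, by 0.57 ± 0.10 (0.00988). Camk4, the nuclear calmodulin kinase that phosphorylates CREB, fell by 0.64 ± 0.12 on the log2 scale (0.0122), and Rps6ka3, an ERK-activated kinase, fell by 0.45 ± 0.09 (0.0147).

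Among genes that work with the members' products, Nab2 rose by 0.81 ± 0.09 (SE; adjusted p = 0.00468), from 7.19, 7.20 and 7.20 on naive arrays to 7.91, 8.17 and 7.95 on SNT arrays. Nab2 is the corepressor that EGR factors induce and that then limits some of them. Its relative Nab1 fell by 0.28 ± 0.09 (0.0617), a call lost in 4 of 14 alternatives. Rxra, a retinoid X receptor that pairs with NR4A receptors, rose by 0.53 ± 0.14 (0.0371) and lost the call without naive 1 or naive 2. Of the 7 EGR corepressors and NR4A partners 2 rose and 1 fell (against 17.3% and 14.8% of all clusters), with a median of 0.22. Leaving out 1 array gave 1 to 5 that rose, with 5 without SNT 1 and 1 without naive 1 or naive 2, and none that fell without SNT 2, naive 1 or naive 3.

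For Btg2, which had no cluster of its own, the family of BTG and TOB proteins and the CCR4-NOT deadenylase that they recruit to mRNAs was represented by 11 measured genes of 13 listed. Of these 3 rose and none fell (against 17.3% and 14.8% of all clusters), with a median of 0.32, and 7 rose without SNT 1. Btg1 rose by 1.01 ± 0.19 (SE; adjusted p = 0.0136), Tob2 by 0.56 ± 0.12 (0.0194) and Cnot3 by 0.36 ± 0.08 (0.0210), the last losing its call on median centring (0.114).

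Arc's partners at the synapse were split, 3 of 7 measured genes of 10 listed rising and 3 falling, with a median of 0.17. Over all clusters 17.3% rose and 14.8% fell. Gria2, an AMPA receptor subunit, fell by 2.16 ± 0.35 (SE; adjusted p = 0.00897), from 8.21, 8.26 and 8.16 on naive to 6.90, 5.41 and 5.83 on SNT arrays. Its level was lower on every SNT array, least so on SNT 1. Dlg4, the postsynaptic scaffold PSD-95, fell by 0.53 ± 0.09 (0.00911) and Wasf1, an actin regulator, fell by 1.00 ± 0.21 (0.0179), whereas Sh3gl3, an endophilin of the endocytic machinery, rose by 0.72 ± 0.13 (0.0114).

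Genes reported elsewhere as EGR1 targets included 12 measured of 14 listed. Of these 10 rose and 1 fell (against 17.3% and 14.8% of all clusters), with a median of 0.62. By adjusted p the first were Fgf2, a growth factor, at 1.77 ± 0.15 (SE; adjusted p = 0.00246), Icam1, an adhesion molecule of endothelium and leukocytes, at 0.98 ± 0.09 (0.00327), Nab2 and Cd44, the hyaluronan receptor, at 0.97 ± 0.11 (0.00479). Plau, the urokinase protease, and Tgfb1 rose by more than the last 3, by 1.73 ± 0.21 (SE; adjusted p = 0.00547) and 1.54 ± 0.22 (0.00664), and are named after their values were seen. Vegfa, the angiogenic factor, fell by 0.43 ± 0.07 (0.00980). With naive 1, naive 2 or SNT 2 left out, and on median centring, 6 rose. Several of these genes are also expressed by immune cells, whose markers rose on the same arrays, and their part was not tested.

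Genes reported as Nr4a2 targets in dopamine neurones gave 2 of 8 that rose and 1 that fell. The shares of all clusters were 17.3% and 14.8%. The median of the 8 was 0.05. Vip, a neuropeptide, rose by 2.43 ± 0.18 (SE; adjusted p = 0.00235), from 4.56, 4.47 and 4.32 on naive to 6.60, 6.76 and 7.29 on SNT arrays, and Slc18a2, the vesicular monoamine transporter, rose by 1.14 ± 0.17 (0.00723). Ret, the receptor kinase for the GDNF family, fell by 0.58 ± 0.16 (0.0415), a call lost on quantile normalisation and without naive 1 or naive 2. Th, the rate-limiting enzyme of dopamine synthesis, had a log2 fold change of -0.15 ± 0.09 (SE; adjusted p = 0.294) and was chosen after its values were seen.

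**Figure D4:**
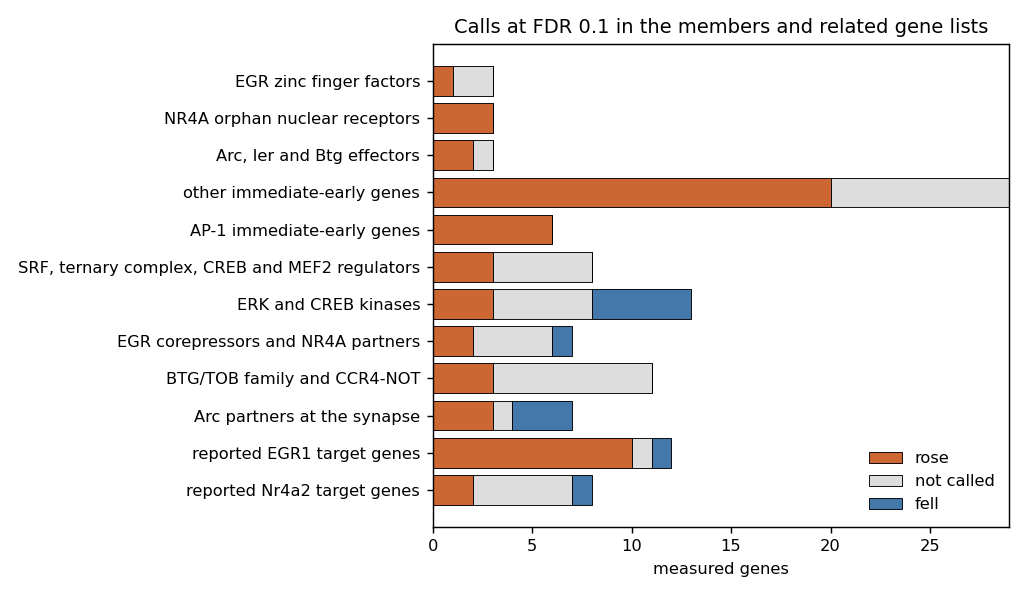
Number of measured genes (horizontal axis) that rose, fell or were not called at an FDR of 0.1 in the 3 groups of the members and in 9 related gene lists. All 3 NR4A genes and all 6 AP-1 genes rose, 20 of the 29 other immediate-early genes rose and none fell, and the kinase and synaptic lists hold genes of both directions. By the same test 17.3% of all clusters rose and 14.8% fell.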

How the data were processed

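L5 dorsal root ganglia of male Wistar rats were profiled on Affymetrix rat exon arrays, 3 pools of 4 SNT animals and 3 pools of 4 naive animals. The authors deposited log2 values, made with the R package oligo by RMA background correction, quantile normalisation and median polish over the probesets of each transcript cluster; tool versions are not given in the sources used. The study's methods name core and extended confidence probesets, without saying which level this table holds. RMA pulls low values together, so changes of dim genes may read smaller than they were. The deposited values were used without further scaling. Clusters were named through GEO's platform annotation: 13327 carried 1 symbol, 620 several and 5471 none, and 13232 of the single symbols matched a RefSeq gene.

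SNT was compared with naive in limma 3.58.1 (R 4.3.3; lmFit and eBayes, two-sided) over all 19418 clusters, with Benjamini-Hochberg adjustment and a call at an FDR of 0.1, the threshold of the study's methods. Fold changes are SNT minus naive with the moderated SE (n = 3 and 3). In simulated data with 3 arrays per group, 200 of 19418 clusters were changed. Of those changed by 0.5 on the log2 scale 38% were recovered, and of those changed by 1, 94%. In the data themselves 32.1% of clusters were called, and the adjusted threshold is stricter where fewer clusters change. These recovery shares therefore do not carry over to the present calls. The samples were pools of different animals; numbers shared between the groups do not pair them. Alternatives were 1 cluster per symbol, array weights, a filter at a mean log2 value of 6, a trended and robust prior, quantile normalisation, cyclic loess, median centring, a replicate block and leaving out each array.

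The members and gene lists were chosen with earlier results of these data known, and the study also prints array results for Egr1. Lists are therefore described by counts and medians, without set tests. Genes named from a list are up to 4 with the smallest adjusted p and up to 2 called against the median of the list; further genes are marked. No member had an absolute log2 fold change of 1, so no gene was named for a like pattern. Promoters came from RefSeq on GRCr8.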

Additional observations from a re-analysis of the deposited data

How the results depend on the processing

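No member changed direction under any alternative, and the median log2 fold change of the members stayed between 0.50 and 0.75. On median centring 3 members were called and 1869 clusters rose and 3403 fell, against 3367 and 2865 with the values as deposited; that centring moves the median change of all clusters from 0.09 to 0.00, by its construction. Leaving out 1 array gave 3499 to 7077 called clusters, 1643 to 3851 that rose and 1856 to 3226 that fell, with 3 to 6 members called; the lowest counts of members came without naive 1, naive 2 or SNT 2, and the highest without SNT 1. With the filter on dim clusters Nr4a3, Arc and Ier2 were not tested, and 5 of the other 6 members were called. Same-numbered arrays of the groups deviated from their group means with correlations of -0.07, -0.15 and 0.05, so the numbers were not taken as pairs; with the number as a replicate block 4700 clusters and 6 members were called, Egr3 gaining a call (adjusted p = 0.0469) and Nr4a3 losing it (0.148). The 3 arrays per group limit the precision. Leaving out an array also lowered the number of samples, and the cause of the calls lost was not tested.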
